A study of Mus musculus with 16 samples.

Results

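The Notch receptors and their ligands were followed as transcripts in 16 small cell lung cancers of the mouse. The 10 genes were chosen by symbol: the receptors Notch1, Notch2, Notch3 and Notch4, the activating ligands Dll1, Dll4, Jag1 and Jag2, the inhibitory ligand Dll3, and Dlk2, a membrane protein related to the Delta ligands. All 10 were found among the 23224 gene rows of the authors' table, and all 10 passed the filter on low counts that left 14857 genes for testing. Every tumor carried the genotype Trp53-/-; Rb1-/- on a mixed C57BL/6;129/Sv background. A CRISPR-mediated mutation of p107 (gene Rbl1) was labelled in 8 tumors and one of p130 (gene Rbl2) in the other 8. Titles such as sgp107_6627T1 were taken to give the guide, the mouse and the tumor within it, so that the p107 tumors come from 4 mice (sgp107_6627, sgp107_6629, sgp107_6630 and sgp107_6631) and the p130 tumors from 3 (sgp130_6637, sgp130_6638 and sgp130_6697). Whole tumors were dissected from lungs, so each value mixes tumor cells with vessels and other cells, and the labels give neither the ages of the mice nor how the deletions were induced. No tumor without either mutation was analysed here, so a difference between the groups cannot be assigned to one of them.

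Notch signalling passes between touching cells. A Delta or Jagged ligand on one cell pulls on a Notch receptor on its neighbour, a metalloprotease and then gamma-secretase cut the receptor, and the freed intracellular part joins the DNA-binding protein RBPJ to switch on targets such as Hes1 and Hey1. In small cell lung cancer, most tumor cells are neuroendocrine. Dll3 works inside the cell against Notch and has been used as a target of therapy. Notch activity turns neuroendocrine cells of these tumors into non-neuroendocrine ones, and Notch1, Notch4 and Dll4 are also genes of blood vessels, while Notch3 marks pericytes and smooth muscle. The p107 and p130 proteins repress genes together with E2F factors.

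Motifs of E2F and RBPJ were therefore looked for in the promoter windows of the 10 genes. RefSeq windows of GRCm38.p6 (250 bases before to 50 after a start site) were available for all 10, 12 windows in all, since Dll1 and Dlk2 have 2 each. The E2F-type motif TTTNNCGC occurred in 1 of the 12 windows, that of Notch2, against 5.17% of all 32851 windows of 300 bases in the table. The RBPJ core TGGGAA occurred in 0 of the 12, against 25.6% of all windows. Both strands were searched. The windows of Notch1, Notch2 and Notch3 are shown, since the differences between genotypes described below turn on these receptors. The sequences run 5′ to 3′ on the strand of the gene, with the match in capitals. Counted from the start site, the match in Notch2 begins at position -114. The Notch1 window lies at chr2:26503773-26504072 on the minus strand, that of Notch2 at chr3:98013288-98013587 on the plus strand and that of Notch3 at chr17:32166841-32167140 on the minus strand.
Notch1: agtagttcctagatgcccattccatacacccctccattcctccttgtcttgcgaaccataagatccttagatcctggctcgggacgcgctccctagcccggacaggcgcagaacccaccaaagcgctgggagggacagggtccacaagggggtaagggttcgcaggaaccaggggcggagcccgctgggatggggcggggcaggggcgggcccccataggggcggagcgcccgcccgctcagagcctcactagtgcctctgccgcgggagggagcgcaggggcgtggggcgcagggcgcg
Notch2: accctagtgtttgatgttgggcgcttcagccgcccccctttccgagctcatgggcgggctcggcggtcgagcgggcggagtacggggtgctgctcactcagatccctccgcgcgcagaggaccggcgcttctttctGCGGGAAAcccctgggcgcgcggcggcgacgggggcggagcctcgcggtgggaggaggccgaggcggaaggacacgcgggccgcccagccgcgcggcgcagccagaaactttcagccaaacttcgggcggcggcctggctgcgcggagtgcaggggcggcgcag
Notch3: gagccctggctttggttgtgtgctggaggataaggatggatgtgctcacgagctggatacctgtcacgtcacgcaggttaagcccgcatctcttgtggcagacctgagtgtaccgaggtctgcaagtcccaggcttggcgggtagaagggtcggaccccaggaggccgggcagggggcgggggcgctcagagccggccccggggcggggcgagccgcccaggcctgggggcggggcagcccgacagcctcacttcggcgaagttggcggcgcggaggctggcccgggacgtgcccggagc
A match describes these letters and is not a binding site, and the counts carry no information on binding. The windows of Notch1 and Notch3 and those of the ligands, Notch4 and Dlk2 held neither motif.

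Estimated counts per library ran from 13300223 to 34620979 for p107 and from 12700334 to 21254514 for p130. Rbl2 lay at 55.4 to 128 CPM (counts per library size, TMM-scaled) in p107 and at 15.6 to 54.4 CPM in p130 tumors. Rbl1 lay at 64.3 to 247 CPM in p107 and 60.6 to 121 CPM in p130 tumors. Gene-level counts do not show whether a transcript carries the mutation. The labelled tissue was checked by 10 neuroendocrine markers, none of which was at 0 throughout the tumors. In tumor sgp107_6627T1 of the p107 group, the 5 epithelial adhesion markers summed to 89.2 CPM against 1230 CPM or more in the p130 tumors. Y-linked transcripts were present in 10 tumors, all 8 of p107 (133 to 252 CPM in sum) and the 2 of mouse sgp130_6697 (231 and 246 CPM). They lay at or below 0.839 CPM in the 6 tumors of sgp130_6637 and sgp130_6638. Sex and genotype therefore overlap, and tumors of one mouse are not fully independent samples.

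All 4 receptor transcripts had higher means in p107 than in p130 tumors, while of the 6 ligand and ligand-related transcripts 4 had log2 fold changes above 0 and 2 below. Notch1 differed most, with means of 23.7 CPM (p107) and 8.63 CPM (p130). Over all genes, 0 of the 10 members had an edgeR adjusted p under 0.05, where 4 of 14857 genes did (0.0269%). At an unadjusted p under 0.05 in edgeR, 3 of the 10 stood out, Notch1, Notch2 and Notch3, each higher in p107. For this count the share of all genes was 11.8% in either direction and 6.21% higher in p107. In all, 8 of the 10 members had a log2 fold change above 0, against 50.0% of all genes, and the median log2 fold change was 0.28 over the members, 0.78 over the receptors and 0.00 over all genes tested. DESeq2 on the same tumors gave adjusted p under 0.05 to 2 members, Notch1 (0.00739) and Notch2 (0.0359), where it called 335 of 17399 genes (1.93%). With the mouse as a random effect in limma's voom the adjusted p was 0.737 for both, and with counts summed per mouse in edgeR it was 0.743 for Notch1 and 0.755 for Notch2.

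**Figure D1:**
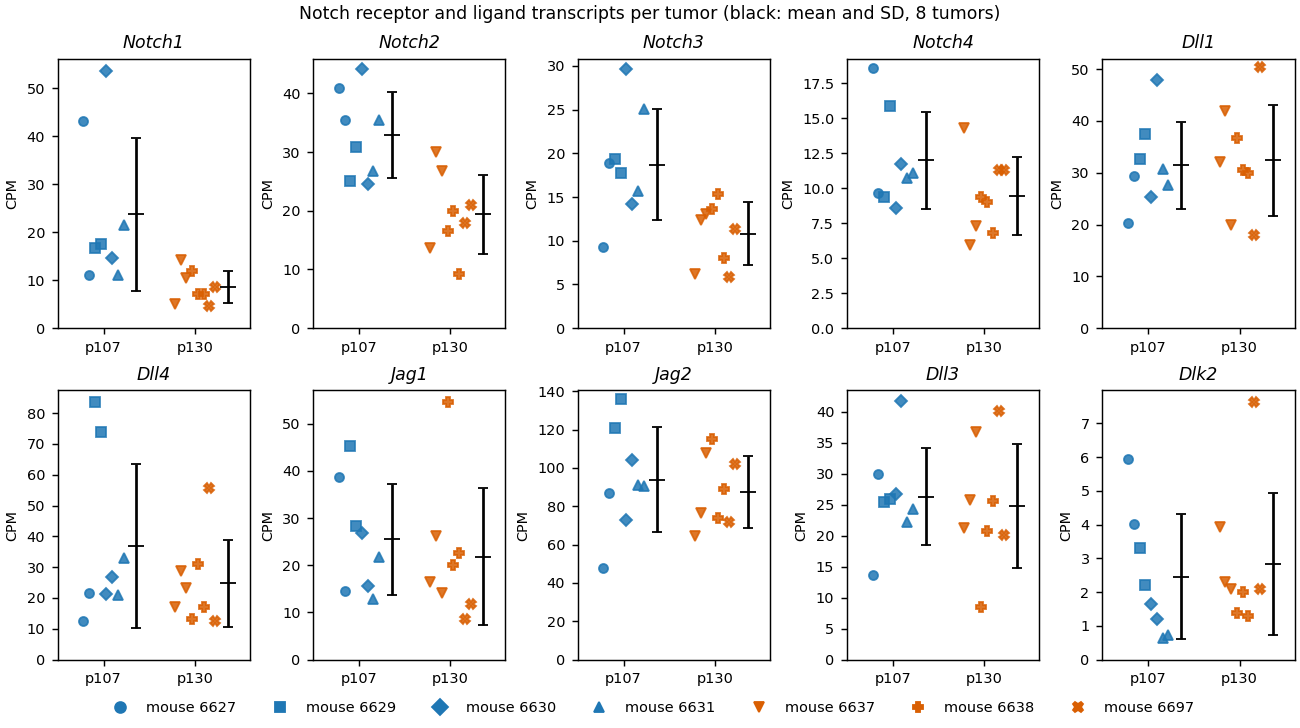
Levels of the 10 transcripts in CPM (vertical axes, starting at 0) by tumor, blue for p107 and orange for p130, with a symbol for each mouse. Black marks are the mean and SD of 8 tumors. The p107 tumors reach 53.6 CPM for Notch1 and 44.1 CPM for Notch2, while p130 tumors stay at or below 14.1 and 30.1 CPM. The groups share their range for Dll1, Dll3 and Jag2.

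Notch1 encodes the receptor best known in T cells, vessels and epithelia. Its level was 11.0 CPM at the lowest, 17.2 at the median and 53.6 at the highest in p107 tumors, and 4.62, 7.89 and 14.1 CPM in p130 tumors. Tumors sgp107_6630T2 (53.6 CPM) and sgp107_6627T1 (43.2 CPM) stood above the rest, while the second tumor of each of these mice was at 14.7 and 11.0 CPM. The groups overlapped only where 2 p107 tumors lay below the highest p130 tumors, so that 6 of 8 p107 tumors were above all p130 tumors. On the log2 scale the difference was 1.46 ± 0.36 SE (95% interval 0.70 to 2.21, edgeR adjusted p = 0.179). The exact two-sided permutation test of mean log2(CPM + 1) over the 12870 splits of the tumors gave p = 0.00155, unadjusted. Over the 35 splits of the 7 mice the exact p was 0.0286, the smallest these splits allow. By mouse, the mean Notch1 level was 27.1, 17.2, 34.2 and 16.2 CPM in sgp107_6627, sgp107_6629, sgp107_6630 and sgp107_6631, and 9.88, 8.75 and 6.59 CPM in sgp130_6637, sgp130_6638 and sgp130_6697. Every p107 mouse was above every p130 mouse.

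Notch2, a receptor with broad expression, is known in airway epithelium for steering cell fate. Its lowest, median and highest levels were 24.5, 33.2 and 44.1 CPM in p107 tumors and 9.18, 18.9 and 30.1 CPM in p130 tumors. The overlap was carried by mouse sgp130_6637, with 30.1 and 26.7 CPM in T2 and T3, and 6 of 8 p130 tumors lay below all p107 tumors. For Notch2, edgeR gave a log2 fold change of 0.77 ± 0.21 SE (95% interval 0.32 to 1.21, adjusted p = 0.209). The exact permutation p was 0.00218 over tumors and 0.0286 over mice, unadjusted. Mouse means were 28.0 to 38.1 CPM in p107 and 15.2 to 23.5 CPM in p130.

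Notch3 ranged from 9.26 CPM over a median of 18.3 to 29.6 CPM in p107 tumors, and from 5.90 over 11.9 to 15.4 CPM in p130 tumors. Its lowest p107 tumor was sgp107_6627T1, which was second highest for Notch1. Between the groups Notch3 differed by 0.80 ± 0.25 SE on the log2 scale (95% interval 0.27 to 1.33, edgeR adjusted p = 0.249), with exact permutation p = 0.00901 over tumors and 0.0571 over mice. Notch4, a receptor largely of endothelial cells, spanned 8.57, 10.9 and 18.6 CPM (lowest, median and highest) in p107 and 5.97, 9.21 and 14.3 CPM in p130 tumors. The ranges overlapped over most of their length, and 2 p107 tumors, sgp107_6627T1 and sgp107_6629T2, lay above all p130 tumors. The log2 fold change of Notch4 was 0.34 ± 0.21 SE (95% interval -0.11 to 0.79, edgeR adjusted p = 0.545), with exact permutation p = 0.111 over tumors and 0.143 over mice. None of the 10 members separated the groups fully, which 21 of 14857 genes did (0.141%).

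The direction of the 4 receptors held in all 18 settings tried, from 1.23 to 1.84 (log2 fold change) for Notch1, 0.58 to 0.97 for Notch2, 0.71 to 1.11 for Notch3 and 0.09 to 0.44 for Notch4. Their adjusted p over these settings ran from 0.00739 to 0.743, from 0.0359 to 0.755, from 0.072 to 0.773 and from 0.485 to 0.994. When the 10 tumors with Y-linked transcripts were compared alone, 8 of p107 and 2 of mouse sgp130_6697, the log2 fold change was 1.84 ± 0.70 SE for Notch1 (edgeR adjusted p = 0.674), 0.77 ± 0.26 SE for Notch2 and 1.11 ± 0.43 SE for Notch3. These 3 differences were at least as large as in all 16 tumors, but the comparison rests on 1 p130 mouse. Notch4 differed by 0.09 ± 0.31 SE there, against 0.34 in all 16 tumors. The edgeR adjusted p in this comparison was 0.592 for Notch2, 0.675 for Notch3 and 0.994 for Notch4.

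In whole tumors, fewer cells of a type and less RNA per cell cannot be told apart, and vessel markers differed in the same direction as the receptors. Of the 12 endothelial markers, 10 had higher and 2 lower means in p107 tumors by log2 fold change, 6 of them at an unadjusted edgeR p under 0.05 and 0 after adjustment, with a median log2 fold change of 0.44. For these counts and those of the other lists below, 50.0% of all genes tested had a log2 fold change above 0. At an unadjusted edgeR p under 0.05 the share of all genes was 11.8% in either direction and 6.21% higher in p107. The summed level of the 12 markers was 433 to 1230 CPM in p107 and 460 to 813 CPM in p130 tumors, and none was at 0. Vwf, one of the 2 markers with lower means in p107, had the highest median of the 12 (453 CPM) and weighs most in this sum. It lay at 75.3 to 987 CPM in p107 and 270 to 617 CPM in p130 tumors. Cdh5, the adhesion molecule VE-cadherin, differed by 0.53 ± 0.15 SE on the log2 scale (edgeR adjusted p = 0.222), and the receptor kinase Tie1 by 0.65 ± 0.22 SE (adjusted p = 0.275). The part of vessel content in the receptor values was not tested. In the other lists of cell markers, the genes with higher means in p107 were 5 of 9 for pericytes and smooth muscle, 6 of 10 for neuroendocrine cells, 5 of 6 for fibroblasts, 3 of 5 for macrophages, 4 of 4 for T, NK and B cells, 6 of 7 for airway and alveolar epithelium and 1 of 5 for epithelial adhesion, and 0 of these genes passed the adjusted threshold in edgeR. At an unadjusted edgeR p under 0.05 there were 1 neuroendocrine gene (Nkx2-1), 1 pericyte gene (Cspg4), 1 fibroblast gene (Pdgfra) and 3 of the 4 lymphocyte genes (Cd79b and Cd8a of smallest p), all higher in p107. Median levels in p107 and p130 tumors were 2.56 and 1.74 CPM for Cspg4, and 25.5 and 19.6 CPM for Pdgfra. They were 2.17 and 1.89 CPM for Cd8a, 1.76 and 0.685 CPM for Cd79b, and 313 and 246 CPM for Nkx2-1. The highest p107 values of Cspg4, Pdgfra, Cd8a, Cd79b and Nkx2-1 were 36.7, 134, 26.8, 9.9 and 393 CPM. The genes of smallest p in the remaining lists were Csf1r and Lyz2 for macrophages, Scgb1a1 and Ager for lung epithelium, and Krt19 and Cdh1 for adhesion. T, NK and B cell markers reached 103 CPM in sum in sgp107_6631T2 and 3.19 to 6.45 CPM in p130 tumors. Without sgp107_6631T2 the count of members at an unadjusted p under 0.05 was again 3.

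**Figure D2:**
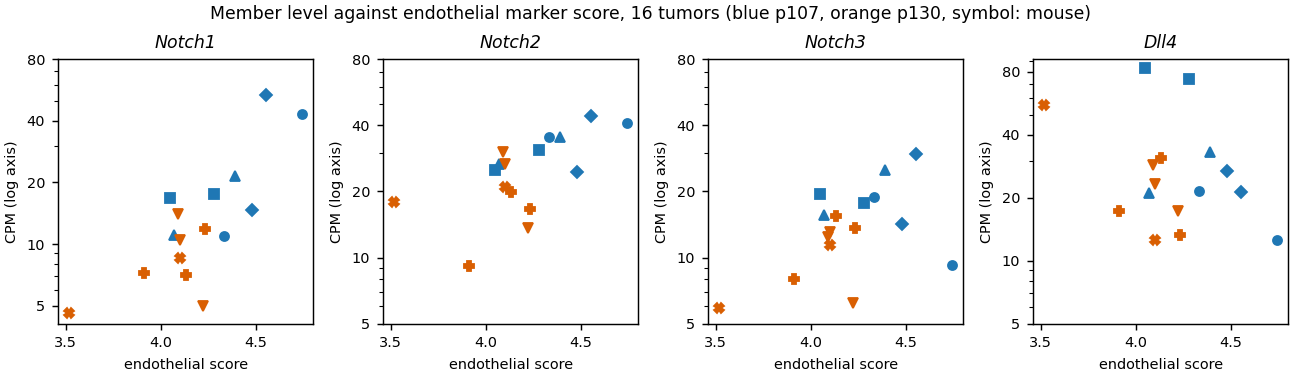
Levels of Notch1, Notch2, Notch3 and Dll4 (CPM, log axis) against the endothelial score, the mean log2(CPM + 1) of 12 vessel markers, in 16 tumors (blue p107, orange p130, symbols by mouse). Notch1 is at 4.62 CPM at the lowest score (3.52) and 43.2 CPM at the highest (4.74), with scatter between. Its highest value, 53.6 CPM, lies at 4.55, while 11.0 CPM lies at 4.33 and 5.01 CPM at 4.22. The 3 highest Dll4 values, 83.7, 73.9 and 55.6 CPM, lie at scores of 4.05, 4.28 and 3.52.

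Across the 16 tumors, 75 relations were computed between pairs of members and between members and 3 marker scores (endothelial, pericyte and smooth muscle, neuroendocrine), each on log2(CPM + 1), and 2 had a Benjamini-Hochberg adjusted permutation p under 0.05 for Pearson's r. Notch1 and Notch2 moved together (r = 0.79, permutation p = 0.00034, adjusted p = 0.0154; Spearman's rho = 0.79, permutation p = 0.00035, adjusted p = 0.0262). Their r was 0.71 without the 2 tumors farthest from the median of Notch1, 0.75 among p107 tumors, 0.55 among p130 tumors, 0.58 for deviations from the genotype means and 0.86 over the means of 7 mice. The adjusted permutation p was 0.167 without those 2 tumors and 0.254 for the deviations, so that neither passed. Notch1 also followed the endothelial score (r = 0.78, permutation p = 0.00041, adjusted p = 0.0154; rho = 0.64, permutation p = 0.00911, adjusted p = 0.175). Here r was 0.64 without the 2 tumors of most extreme score, 0.73 within p107, 0.50 within p130, 0.63 for deviations from the genotype means, 0.70 without sgp107_6627T1 and 0.92 over the means of 7 mice. The adjusted permutation p was 0.188 without those 2 tumors, 0.202 for the deviations and 0.0906 without sgp107_6627T1. Notch1 and Notch3 gave r = 0.63 (permutation p = 0.00845, adjusted p = 0.127; rho = 0.64, permutation p = 0.00894, adjusted p = 0.175), with 0.09 within p107, 0.77 within p130 and 0.35 for deviations from the genotype means (adjusted permutation p = 0.571). Without the 2 tumors farthest from the median of Notch1 their r was 0.86 (adjusted permutation p = 0.00675). Without sgp107_6627T1, 3 relations passed, those of Notch1 with Notch2 (r = 0.76, adjusted permutation p = 0.0325), Notch1 with Notch3 (r = 0.87, 0.00075) and Notch2 with Notch3 (r = 0.81, 0.00862). Notch2 against the same score gave r = 0.62 (permutation p = 0.0118, adjusted p = 0.147; rho = 0.61, permutation p = 0.014, adjusted p = 0.175) and r = 0.61 without the 2 extreme tumors, but r = 0.15 within p130 and 0.35 for deviations from the genotype means. Notch3 against the score gave r = 0.48 (permutation p = 0.0604, adjusted p = 0.421; rho = 0.40, permutation p = 0.122, adjusted p = 0.622), with -0.26 within p107 and 0.57 within p130. Dll4 did not go with it in this way, at r = -0.35 (permutation p = 0.185, adjusted p = 0.646; rho = -0.23, permutation p = 0.398, adjusted p = 0.861) and r = 0.04 without the 2 extreme tumors, with -0.64 within p107 and -0.72 within p130 tumors. Notch4 against the endothelial score gave r = 0.40 (permutation p = 0.13, adjusted p = 0.521), with 0.43 within p107 and -0.01 within p130. Notch3 against the pericyte and smooth muscle score gave r = 0.06 (permutation p = 0.829, adjusted p = 0.935). The tumors share 7 mice, so these permutation p treat them as more independent than they are.

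Of the 4 activating ligands, 0 had an unadjusted edgeR p under 0.05 between the genotypes, and single mice and tumors stood out in their place. Dll4, the Delta ligand of sprouting vessels, ranged from 12.5 over a median of 24.2 to 83.7 CPM in the p107 set and from 12.6 over 20.2 to 55.6 CPM in p130 tumors. Both tumors of sgp107_6629 (83.7 and 73.9 CPM) and tumor sgp130_6697T1 (55.6 CPM) were high, and the remaining 13 tumors lay between 12.5 and 33.0 CPM. Its log2 fold change was 0.57 ± 0.40 SE (95% interval -0.29 to 1.42, edgeR adjusted p = 0.605; exact permutation p = 0.303 over tumors and 0.714 over mice), and without mouse sgp107_6629 it was -0.13. The endothelial scores of these 3 tumors were 4.05, 4.28 and 3.52, the last the lowest of the 16. An unnamed gene model on the opposite strand, Gm14207, overlaps Dll4 and reached at most 7.86 CPM.

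Jag1, a ligand of vessels, stroma and epithelia, ranged from 12.8 over 24.3 to 45.3 CPM in p107 and from 8.51 over 18.2 to 54.7 CPM in p130 tumors. The highest tumor was sgp130_6638T3 at 54.7 CPM, and the lowest was sgp130_6697T1 at 8.51 CPM. The log2 fold change was 0.23 ± 0.36 SE (95% interval -0.53 to 0.98, edgeR adjusted p = 0.836), and it was -0.01 without mouse sgp107_6629 and -0.01 without mouse sgp130_6697. With Y-linked tumors alone it was 1.33 ± 0.51 SE, where the p130 side is sgp130_6697 alone, the mouse with the lowest Jag1 mean (10.2 CPM). Jag2, another Jagged ligand, had the smallest SD of log2(CPM + 1) of the 10 transcripts (0.376) and lay at 48.0, 91.1 and 136 CPM (lowest, median and highest) in p107 and 64.7, 82.6 and 115 CPM in p130 tumors. Its log2 fold change was 0.10 ± 0.18 SE (95% interval -0.29 to 0.49, edgeR adjusted p = 0.869), and over the 18 settings it lay between -0.09 and 0.23. Dll1, a Delta ligand that acts early in neural and other cell fate choices, had a median of 30.0 CPM (20.3 to 47.8) in p107 and 31.3 CPM (18.0 to 50.3) in p130 tumors. Its log2 fold change was -0.04 ± 0.21 SE (95% interval -0.49 to 0.40, edgeR adjusted p = 0.958), and over the 18 settings it lay between -0.12 and 0.05.

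Dll3, the inhibitory ligand, was present in every tumor. Its lowest, median and highest levels were 13.6, 25.8 and 41.8 CPM in p107 and 8.45, 23.4 and 40.1 CPM in p130 tumors, and the ranges overlapped nearly throughout. The log2 fold change was 0.08 ± 0.26 SE (95% interval -0.47 to 0.63, edgeR adjusted p = 0.932), with -0.19 to 0.20 over the 18 settings. The lowest Dll3 level was in sgp130_6638T3 (8.45 CPM), the tumor with the highest Jag1, and the next lowest in sgp107_6627T1 (13.6 CPM), the tumor with the low epithelial adhesion markers. Over the 16 tumors Jag1 and Dll3 gave r = -0.64 (permutation p = 0.0065, adjusted p = 0.122) but rho = -0.35 (permutation p = 0.186, adjusted p = 0.663) and r = -0.32 without sgp130_6638T3 and sgp130_6697T1, the 2 tumors farthest from the median of Jag1. Within p107 r was -0.49 and within p130 it was -0.81, and r was -0.69 for deviations from the genotype means and -0.59 without sgp107_6627T1. Dll3 against the neuroendocrine score gave r = 0.43 (permutation p = 0.101, adjusted p = 0.492; rho = 0.49, permutation p = 0.0577, adjusted p = 0.481), with 0.38 without the 2 extreme tumors. Dlk2, whose product has been reported to inhibit Notch1, was the scarcest by CPM, at 0.626, 1.92 and 5.94 CPM in p107 and 1.29, 2.09 and 7.62 CPM in p130 tumors. It rested on 12 to 137 estimated counts per tumor, and the exons of Abcc10 on the opposite strand, at most 12.4 CPM, overlap it. Its log2 fold change was -0.22 ± 0.48 SE (95% interval -1.24 to 0.81, edgeR adjusted p = 0.896), with -0.98 to 0.17 over the 18 settings, and by mouse its level spread from 0.672 CPM in sgp107_6631 to 4.98 CPM in sgp107_6627. For Jag1, Jag2, Dll1, Dll3 and Dlk2 the exact permutation p over tumors was 0.424, 0.729, 0.95, 0.641 and 0.596, unadjusted.

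Between tumors, some members varied far more than others. Notch1 spanned 11.6-fold from lowest to highest tumor and Dlk2 12.2-fold, while Dll1 spanned 2.8-fold and Jag2 2.84-fold. The SD of log2(CPM + 1) over the 16 tumors was 0.906 for Notch1, which is at the 90.1 percentile of tested genes with a mean of at least 5 CPM. Dll4 (0.813) was at percentile 87.8, Jag1 (0.704) at 83.7 and Jag2 (0.376) at 50.8. Within genotypes the SD of Notch1 was 0.677 and that of Dll4 0.81. Between tumors of one mouse these were 0.767 and 0.633, so the spread of Notch1 was found also inside single mice and that of Dll4 was smaller there.

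**Figure D3:**
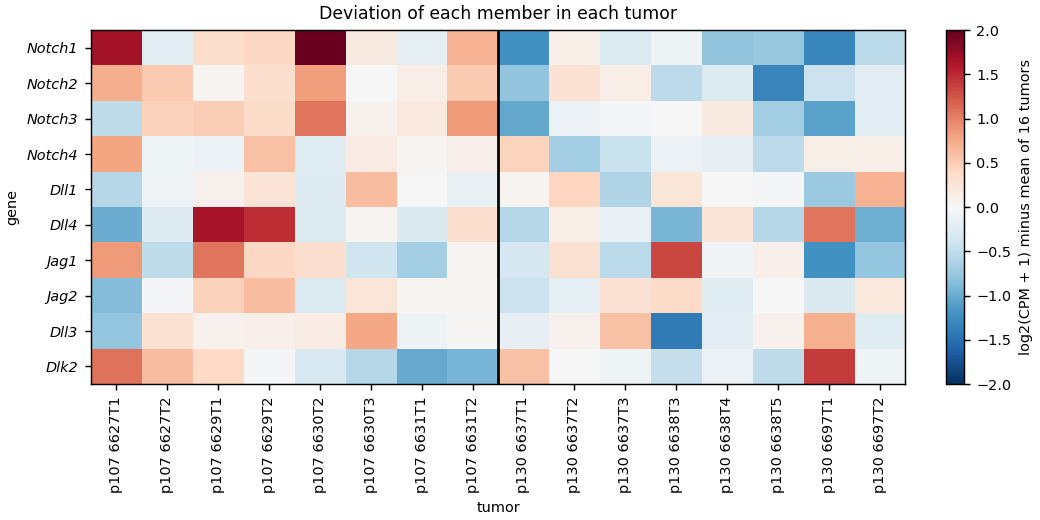
Deviation of each transcript from its own mean over 16 tumors, in log2(CPM + 1), red above and blue below (colour bar at right), with tumors in columns and the line between p107 and p130. Notch1 is reddest in sgp107_6627T1 and sgp107_6630T2, Dll4 in sgp107_6629T1 and sgp107_6629T2, and the Notch1, Notch2 and Notch3 rows hold most of their blue cells on the p130 side.

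Levels of different genes were compared per length, as CPM per kb of the longest protein-coding transcript in GENCODE M21 (GRCm38). In this unit the mean of each of the 5 ligands stood above that of each receptor. Jag2 led with 17.8 ± 4.48 CPM per kb (SD, n = 16), followed by Dll3 (9.76 ± 3.33), Dll1 (8.91 ± 2.59), Dll4 (8.22 ± 5.75) and Jag1 (4.22 ± 2.30). The receptors followed with Notch2 at 2.49 ± 0.929, Notch3 at 1.84 ± 0.806, Notch1 at 1.70 ± 1.43 and Notch4 at 1.62 ± 0.502 CPM per kb, and Dlk2 was last at 1.48 ± 1.08. Of neighbours in this order, Jag2 and Dll3 differed by more than the spread of their difference (mean log2 difference 0.91, SD 0.64), with Jag2 higher in 15 of 16 tumors and in the means of 7 of 7 mice. The remaining neighbours lay within it. Dll3 exceeded Dll1 in 8 of 16 tumors (mean log2 difference 0.10, SD 0.76), Dll1 exceeded Dll4 in 11 (0.31, SD 0.97) and Dll4 exceeded Jag1 in 14 (0.89, SD 1.11). Jag1, the lowest of these ligands, was above Notch2, the highest receptor, in 12 tumors (0.69, SD 0.88). Among receptors, Notch2 was above Notch3 in 12 tumors (0.46, SD 0.51) and Notch3 above Notch1 in 14 (0.32, SD 0.75). Notch1 was above Notch4 in 5 (-0.21, SD 0.99), its higher mean per kb being carried by sgp107_6627T1 and sgp107_6630T2.

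**Figure D4:**
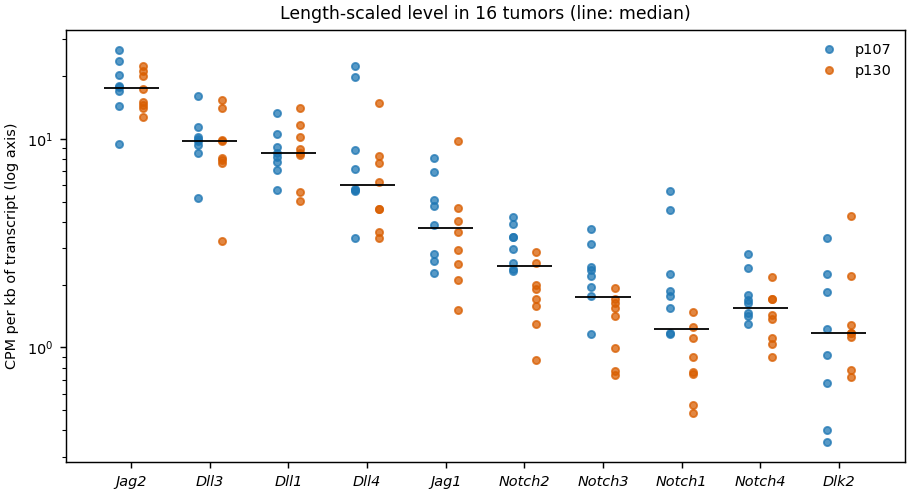
CPM per kb of transcript (log axis) for the 10 genes, ordered by mean, in the 16 tumors, blue for p107 and orange for p130, with a line at the median. By mean, Jag2 is highest and the 4 receptors lie below the 5 ligands, while single tumors overlap, with Jag1 above Notch2 in 12 of 16, with orange points toward the lower end of Notch1, Notch2 and Notch3.

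The leading ligand per kb was Jag2 in 15 tumors and Dll3 in 1 (sgp130_6697T1). The leading receptor changed from tumor to tumor: Notch2 in 8, Notch3 in 3, Notch4 in 3 and Notch1 in 2, the last being sgp107_6627T1 and sgp107_6630T2. Notch4 led only in p130 tumors (sgp130_6637T1, sgp130_6638T5 and sgp130_6697T1), a split that was not tested. Summed over the 4 receptors, the level was 7.29 to 14.8 CPM per kb in p107 and 3.67 to 6.81 CPM per kb in p130 tumors, so the sums did not overlap, while the 4 activating ligands summed to 25.3 to 63.3 and 29.1 to 46.0 CPM per kb. The 5 ligands (Dll3 included) held 2.46 to 9.13 times the receptor sum in p107 and at least 7.17 times in p130 tumors, with medians of 5.63 and 7.83. Dll3 made up 6.56% (sgp130_6638T3) to 30.2% (sgp130_6697T1) of the ligand sum. Without length scaling the receptor sums nearly met, at 64.2 to 136 CPM in p107 and 31.2 to 62.6 CPM in p130 tumors. How often sums of 4 other genes keep the groups apart was not computed. These sums of receptors and ligands combine members already described and carry no test of their own.

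The other genes of the pathway were taken as lists, 51 genes of which 50 were tested. Of these, 36 had a log2 fold change above 0 and 14 below (50.0% above over all genes), 5 had an unadjusted edgeR p under 0.05, all higher in p107, and 0 passed after adjustment. Over all genes 11.8% had such a p in either direction and 6.21% were higher in p107 with one, so the share of the pathway genes lay near that of all genes. One of the 5, Dlk1, had its high value in a single tumor, sgp107_6627T1 (47.1 CPM). The median log2 fold change was 0.11. Among 7 target genes, 4 had higher and 3 lower means in p107, with a median of 0.04. Hes1, the repressor that Notch switches on, ranged from 10.8 over 21.0 to 46.9 CPM in p107 and from 5.17 over 12.4 to 27.2 CPM in p130 tumors. It was highest in sgp107_6630T2, which was also highest for Notch1, Notch2 and Notch3, and lowest in sgp130_6697T1, which was lowest for Notch1 and Notch3. Hes1 differed by 0.74 ± 0.32 SE on the log2 scale (edgeR adjusted p = 0.377). Hey2, a related repressor of vessels and heart, lay at 0.968 to 4.70 CPM in 14 tumors and at 11.4 and 15.5 CPM in sgp130_6638T3 and sgp130_6638T5 (edgeR adjusted p = 0.547). Hey1 reached 171 CPM in sgp130_6697T1, the p130 tumor with high Dll4, and 20.8 to 65.8 CPM elsewhere, a tumor singled out after its values were seen.

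In the other lists too, no gene passed after adjustment. Of 8 genes for receptor cleavage, 7 were higher in p107, led by Ncstn, a subunit of gamma-secretase, at 145 ± 39.8 against 109 ± 27.8 CPM (SD, n = 8 each, log2 fold change 0.41 ± 0.18 SE, edgeR adjusted p = 0.395), and Aph1a, another subunit (0.24 ± 0.11 SE, adjusted p = 0.425). Of 8 genes of the nuclear complex, 6 were higher, led by the coactivators Maml2 (0.55 ± 0.25 SE, edgeR adjusted p = 0.404) and Maml3 (0.43 ± 0.22 SE, adjusted p = 0.47). Rbpj itself was at 198 ± 27.3 and 193 ± 39.0 CPM. Of 11 repressors and turnover genes, 7 were higher, led by the ubiquitin ligase genes Dtx4 (0.35 ± 0.15 SE, edgeR adjusted p = 0.384) and Fbxw7 (0.49 ± 0.25 SE, adjusted p = 0.463). Of 6 maturation and fringe enzymes, 5 were higher, with Poglut1 (0.16 ± 0.10 SE, edgeR adjusted p = 0.535) and Rfng (0.11 ± 0.15 SE) first, and of 4 genes for ligand endocytosis 2 were higher, with Neurl1a (-0.18 ± 0.24 SE) and Neurl1b (0.12 ± 0.28 SE) first. Among 6 tested genes for other proposed ligands, Dlk1, an imprinted relative of Dlk2, lay at 47.1 CPM in sgp107_6627T1 and nowhere else above 1.53 CPM (edgeR adjusted p = 0.246). Nov, a matricellular protein gene, lay at 1960 ± 442 and 2580 ± 936 CPM (edgeR adjusted p = 0.462).

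**Figure D5:**
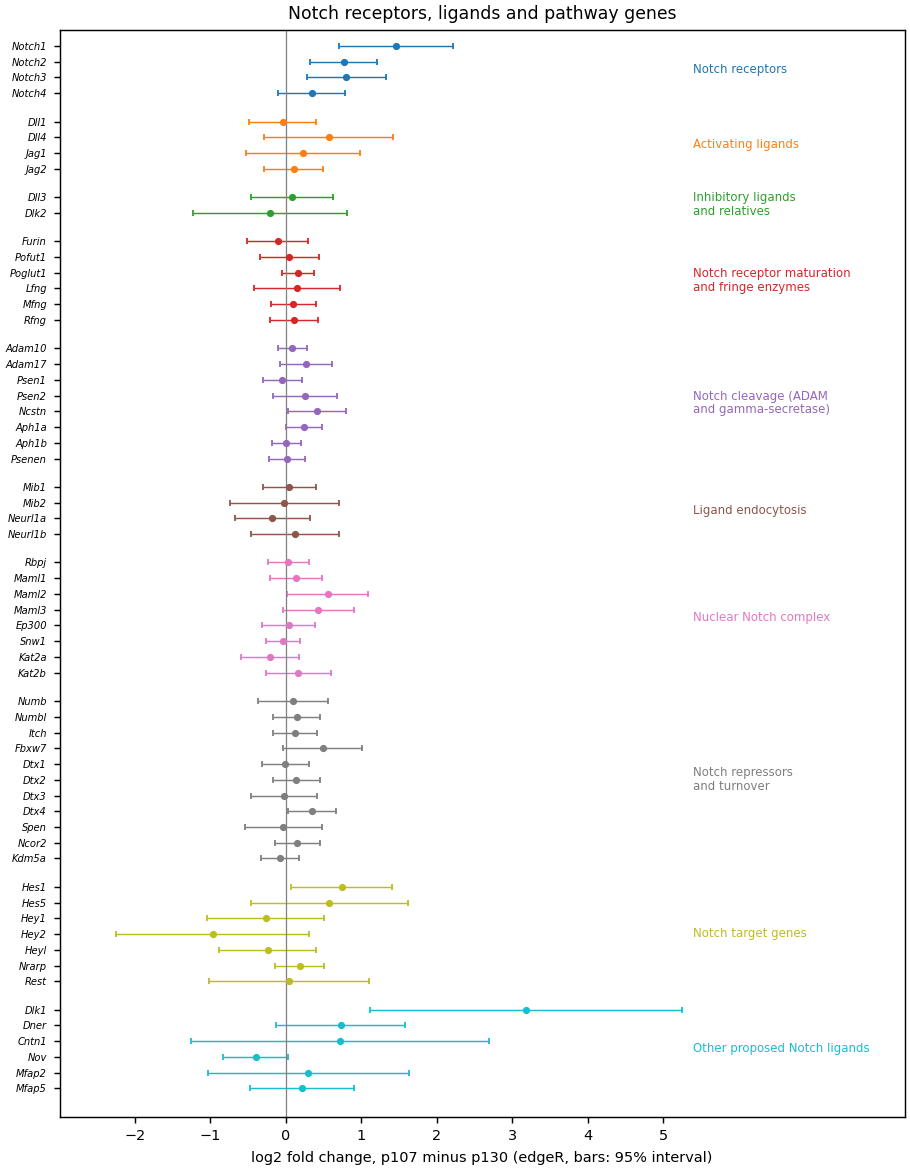
Log2 fold changes, p107 minus p130 (horizontal axis), from edgeR with 95% intervals for the 10 members and 50 tested pathway genes, coloured by list. The intervals of Notch1, Notch2 and Notch3 lie wholly to the right of 0, while those of the ligands cross it.

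The genes whose levels followed each member most closely over the 16 tumors were sought among 11235 tested genes with a mean of at least 5 CPM, by Pearson's r of log2(CPM + 1), as a description. Notch1 was nearest to the sialyltransferase gene St3gal1 (r = 0.92), the acyltransferase gene Mboat1 (0.90) and the metalloproteinase inhibitor gene Timp3 (0.90). Notch2 was nearest to Slc43a3 (0.91), Usp49 (0.87) and Tsc22d3 (0.85), and Notch3 to Kif1c (0.91), the VEGF receptor gene Kdr (0.90) and Sp110 (0.89). Notch4 was nearest to Kif21b (0.83), Phax (0.80) and Pak1 (0.80). For deviations from the genotype means, r with the same genes in this order was 0.85, 0.79 and 0.88 for Notch1. It was 0.81, 0.75 and 0.85 for Notch2, 0.85, 0.84 and 0.85 for Notch3, and 0.78, 0.78 and 0.75 for Notch4. Among the ligands, Jag2 was nearest to the netrin receptor gene Unc5a (0.88), the growth factor gene Hgf (0.87) and Slc45a4 (0.86), and Jag1 to Rbbp9 (0.83), Nanp (0.83) and Mat2b (0.81). Dll4 had less close neighbours, Impdh1 (0.78), Tmem185b (0.75) and Tcp11l1 (0.75), and so had Dll1, with Ephx4 (0.83), Klhdc7a (0.78) and the collagen gene Col18a1 (0.77). Dll3 was nearest to Susd1 (0.86), the lamin gene Lmna (0.84) and Slc16a6 (0.83). Dlk2 was nearest to Ppp2r2c, the neuronal tubulin gene Tubb3 and Slc27a3 (0.91 each). For the ligands and Dlk2, r of the deviations from the genotype means lay between 0.73 and 0.93. No member was among the 3 nearest genes of another.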

How the data were processed

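Per the submitters' notes and the values, the authors deposited estimated counts, with a column for each tumor. The submitters' processing notes name RSEM 1.2.12, Bowtie 1.0.1 and the build mm9. Neither annotation nor strand setting is given in the sources used here, so reads of overlapping genes on the 2 strands cannot be told apart, and the build differs from that of the promoter windows and transcript lengths. Another deposited file gives a normalized signal, each column of which is the estimated counts times a constant, and served as an alternative. Per the labels' protocols, total RNA of frozen tumors went into KAPA mRNA libraries.

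Estimated counts were rounded to whole numbers and tested with edgeR 4.0.16 (R 4.3.3) over all 16 tumors: TMM factors, filterByExpr, robust quasi-likelihood F test, Benjamini-Hochberg adjustment over 14857 genes, threshold 0.05. Levels are CPM with TMM factors, and exact tests and relations used log2(CPM + 1). Relations used 100000 permutations. The labels call the tumors biological replicates, and no 2 libraries of the same group agreed within counting noise (lowest chi-square per gene 38.6). Pairs across the groups were not compared. Intervals cover the spread between tumors. Alternatives were DESeq2 1.42.0, limma 3.58.1 (voom with mouse as random effect, and the normalized signal), counts summed per mouse, other factors and filters, each mouse left out, and 2 tumors left out. The code was tested on simulated data. The members and gene lists were chosen with earlier results of these data known. Of 119 list genes, 1 (Adgre1) was not matched. Named genes are the members, the 2 of smallest p in a list and the 3 nearest by r, with unnamed gene models passed over. Unnamed gene models overlap exons of Notch1, Notch2, Notch3 and Dll1 in GENCODE M21. None of these models is among the 23224 gene rows, so reads from them may be counted with the members.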

Additional observations from a re-analysis of the deposited data

Results flagged for a closer look

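Of 20 groups of values (10 members in each genotype), 3 held a tumor whose gap to the nearest of the others was a larger share of the group's range than Dixon's 95% critical value for 8 samples. For independent values with a normal distribution, chance gives about 1 in 20, or 1 group. The values were CPM without logs and tumors share mice, so the 3 groups cannot be weighed against that number. All 3 lay among p130 tumors. The rule takes the gap to the nearest value, so it can miss 2 high tumors in 1 group. Among p107 tumors, Dll4 was 83.7 and 73.9 CPM in sgp107_6629T1 and sgp107_6629T2. Notch1 was 53.6 and 43.2 CPM in sgp107_6630T2 and sgp107_6627T1, and neither group was flagged. Dll4 was 55.6 CPM in sgp130_6697T1 against 12.6 to 31.0 CPM in the other p130 tumors. Dlk2 was 7.62 CPM in the same tumor against 1.29 to 3.93 CPM. Jag1 was 54.7 CPM in sgp130_6638T3 against 8.51 to 26.3 CPM.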

How the results depend on the processing

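The receptors kept their direction in 18 of 18 settings and 3 members had an unadjusted p under 0.05 in each, except 4 among tumors with Y-linked transcripts. Adjusted calls among members numbered 2 instead of 0 with DESeq2. Among all genes, 4 calls became 335 with DESeq2, 1 with counts summed per mouse (1013 unadjusted in edgeR), 0 with mouse as a random effect in limma's voom (935 unadjusted; correlation within a mouse 0.201), 1 with limma on the normalized signal, 2 without tumor sgp107_6631T2 and 0 among tumors with Y-linked transcripts (1037 unadjusted). Leaving out a mouse gave 0 to 10. Of the 75 relations, 2 passed. Without the 2 farthest tumors both were lost (adjusted p = 0.167 and 0.188) and 1 other, Notch1 with Notch3, passed (0.00675). By Spearman's rho 1 passed, and 0 for deviations from the genotype means. The log2 fold changes near 0 changed sign in some settings. Leaving out a mouse gave -0.12 to 0.05 for Dll1, -0.13 to 0.80 for Dll4, -0.01 to 0.72 for Jag1, -0.09 to 0.23 for Jag2, -0.14 to 0.20 for Dll3 and -0.82 to 0.17 for Dlk2. Mouse sgp107_6629 turned Dll4, Jag1 and Jag2, mouse sgp130_6697 turned Jag1 and Dlk2, sgp107_6627 Dll1, sgp107_6630 and sgp130_6638 Dll3, and sgp107_6631 Dlk2. Dll1 was also 0.00 under voom and 0.02 without tumor sgp107_6627T1, and Dll3 -0.19 among tumors with Y-linked transcripts. The cause was not tested. The exact test found 3 members at p under 0.05 whichever mouse was left out, and 2 on mouse means. Spearman's rho, the mouse means of the relations, and the pseudocount and the left-out mice and tumors of the exact test were chosen after seeing the data. Depth limits Dlk2 most, with 12 counts in its lowest tumor. No paired analysis was possible because, as the titles were read, each mouse gave tumors to 1 group only.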
